A study of Rattus norvegicus with 32 samples.

Results

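The Arp2/3 complex was followed at the mRNA level in C6 rat glioma cells exposed to angiotensin II (Ang II). The genes taken were the 10 whose names on the array are those of the subunits, Actr2, Actr3, Actr3b, Arpc1a, Arpc1b, Arpc2, Arpc3, Arpc4, Arpc5 and Arpc5l, out of 26583 gene names in all. The family was chosen from results of these same arrays that were already known, in which Arpc4 was low with Losartan at 3 h and Actr3b low with PD123319 at 6 h. Those comparisons are therefore described here without p-values. So are the direct comparisons of the antagonists and the changes with time of those differences for the same genes. Other comparisons of Arpc4 and Actr3b share arrays with them. A call or interval given there is not independent of the choice.

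C6 is an established line from a chemically induced rat glioma and was used as a culture, so the surroundings of a tumour are not part of the model. Confluent cells were left as Control, given Ang II (100 nM), or given Ang II after 30 min with Losartan (10 µM, Ang II+Los) or with PD123319 (10 µM, Ang II+PD123319). In bulk RNA of a culture, fewer cells of a kind and less RNA per cell cannot be told apart. RNA was taken after 3 h or 6 h and each of the 8 groups holds 4 arrays, 32 one-colour Agilent arrays in total. Losartan blocks the AT1 receptor of Ang II and PD123319 its AT2 receptor, and neither antagonist was given without Ang II. The comparisons ask what Ang II does (Ang II x Control), what blocking AT1 (Ang II+Los x Ang II) or AT2 (Ang II+PD123319 x Ang II) changes, and how the antagonists differ (Ang II+Los x Ang II+PD123319).

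The complex is the cell's nucleator of branched actin. Arp2 and Arp3 resemble actin and form the start of a new filament, while the ArpC subunits hold them together and attach them to the side of an existing filament. Proteins of the WASP and WAVE families, which answer to the GTPases Cdc42 and Rac, switch the complex on, and the branched networks that follow push out lamellipodia in migrating cells, invasive glioma cells among them. Actr3 and Actr3b, Arpc1a and Arpc1b, and Arpc5 and Arpc5l are pairs of related genes whose products take the same place in the complex.

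The 10 genes were read by 13 probes of 60 bases, 2 for Arpc1a, 3 for Arpc5l and 1 for each of the others. All 10 genes passed the filter on dim probes at both times. The Arpc4 and Arpc1a probes are shown whole because they carry the largest and the most even differences of the family, 5′ to 3′ in the sense of the mRNA, with no letters marked. On rat build rn4 the Arpc4 probe lies at chr4:149266030-149266089 on the plus strand, and the Arpc1a probes at chr12:9821369-9821428 and chr12:9829457-9829516 on the minus strand.
Arpc4: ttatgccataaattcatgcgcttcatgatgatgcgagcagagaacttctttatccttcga
Arpc1a, A_44_P486568: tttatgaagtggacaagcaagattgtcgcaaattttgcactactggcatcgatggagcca
Arpc1a, A_64_P068589: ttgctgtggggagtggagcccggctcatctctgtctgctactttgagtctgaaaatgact

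Of the 3 Arpc5l probes, A_64_P139113 (chr3:18801923-18801982, plus strand) and A_64_P064523 (chr3:18801927-18801986) overlap by 56 bases, so they are not independent readings. They differ at 1 base of the overlap, in capitals in the first 30 bases of the overlap shown here, which is C12T when positions are counted from 1 at the 5′ end of the stretch and A_64_P139113 is named first. The other probe, A_64_P064521, lies upstream at chr3:18799223-18799282. Its median signal in the scanner's own units over the 16 arrays at 3 h was 80.2, where the overlapping pair had 11984 and 13567, so the average of the gene mixes readings at very unequal signal.
Arpc5l, A_64_P139113: ctctcttgggtCcattgtaaagtgcctgct
Arpc5l, A_64_P064523: ctctcttgggtTcattgtaaagtgcctgct

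The remaining stretches are 30 bases each and show where single probes sit. The Arpc3 probe (chr12:35367014-35367073, minus strand) and the Actr3 probe (chr13:37861628-37861687, minus strand) hold the letters of a polyadenylation hexamer, in capitals. AATAAA stood in 3 of the 13 probes (Arpc3 and the overlapping Arpc5l pair) and ATTAAA in 1, against 8.39% and 3.05% of the 30367 probes of the array, on the strand of the probe. Their reverse complements, TTTATT and TTTAAT, stood in 2.86% and 2.04% of the array's probes and in 0 of the 13. The Actr3b probe (chr4:4654641-4654700, minus strand) is shown because its signal was low, 15.4 to 69.8 in the scanner's own units, and the Arpc5 probe (chr13:67764135-67764194, plus strand) because it carries the clearest difference at 3 h.
Arpc3: tacttcatatgtAATAAAtgtcgctgctta
Actr3: attctgtagagtcgtttcttATTAAAacaa
Actr3b: tgtacatagcagtgtggaatcagtgtgtga
Arpc5: agtcgctgactgaggtgagaaccagcacag

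The probes of Actr2, Arpc1b and Arpc2 span 2615, 1166 and 1689 bases of the genome, more than their own 60, so each joins separate stretches of it. The Arpc1a and Arpc1b genes are neighbours on chromosome 12, with 22513 bases between their nearest probes, and share a strand. The longest run of bases that each of the 13 probes shared with a probe of another gene was 12 to 14 bases, and between the related pairs 4 to 7 bases.

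Ang II was followed at 3 h by higher Arpc5 and Actr2, 2 of the 10 genes at an unadjusted p under 0.05, the threshold used throughout for a call. Over all 13628 genes tested 12.6% were called, so a count of 2 of 10 lay near the background. Neither call survived adjustment over all genes by Benjamini-Hochberg, where the lowest adjusted p of any gene on the array was 0.346. The methods' paired t-test also called 2, beside 8.83% of all genes, but these were Arpc1b and Arpc4, none shared with limma. With 75th percentile scaling Actr2, Actr3b and Arpc1b were called, beside 12.2%. Values below are log2 signals after cyclic loess normalization within a time, in the order of replicates 1 to 4, each replicate number being 1 slide that held 1 array of each group.

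Arpc5 encodes the subunit that braces Arp2 and the propeller-shaped ArpC1 subunit. Its level was 14.18, 13.35, 13.22 and 13.59 in Control and 14.36, 14.02, 13.38 and 14.06 with Ang II. The ranges overlapped between slides, but Ang II lay above Control on each slide, by 0.17, 0.67, 0.17 and 0.47. The limma estimate was a log2 fold change of 0.37 ± 0.10 (SE), 1.29-fold, with an unadjusted p of 0.00215 and an adjusted p of 0.346.

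Actr2 encodes Arp2 itself. It read 11.96, 11.37, 11.56 and 12.15 in Control and 12.05, 12.50, 11.95 and 12.21 with Ang II. Within slides Ang II was higher by 0.09, 1.13, 0.39 and 0.05, so most of the difference lay on the slide of replicate 2. The limma estimate was 0.42 ± 0.18 (SE), 1.34-fold (unadjusted p = 0.0343, adjusted p = 0.376), and it was 0.18 and not called without replicate 2.

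The related Actr3, which encodes Arp3, differed by 0.07, 0.53, 0.17 and 0.31 within slides, an estimate of 0.27 with a 95% confidence interval from -0.06 to 0.60 that did not pass. Arpc1b, an ArpC1 subunit, had no value on the Control array of replicate 2, where its spot was marked as non-uniform, and the fit left that array out. On the other 3 slides Ang II stood above Control by 0.38, 0.19 and 0.37 (estimate 0.46, interval -0.03 to 0.96, not called). Arpc2 and Arpc4, the subunits that hold the side of the old filament, gave 0.21 and 0.25, Arpc1a 0.24 and Arpc3 0.14, none past the threshold. Actr3b (-0.30) and Arpc5l (-0.19) had negative estimates, also not called.

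In all, 8 of 10 estimates were above 0 at 3 h, with a median of 0.25, while 50.4% of all genes were above 0 with a median of 0.00. Members share the same arrays and are not independent. The size of the difference followed the slide, with a median over the members of 0.13, 0.47, 0.17 and 0.16 on the slides of replicates 1 to 4. The brightness of the arrays before normalization differed too. The 75th percentile of the log2 signal was higher with Ang II than in Control by 0.46, 1.00, 0.18 and 0.42 on those slides, and its part in the result was not tested. On every slide of the study Control held the first position, Ang II the second, Ang II+Los the third and Ang II+PD123319 the fourth, so position and treatment cannot be told apart.

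**Figure D1:**
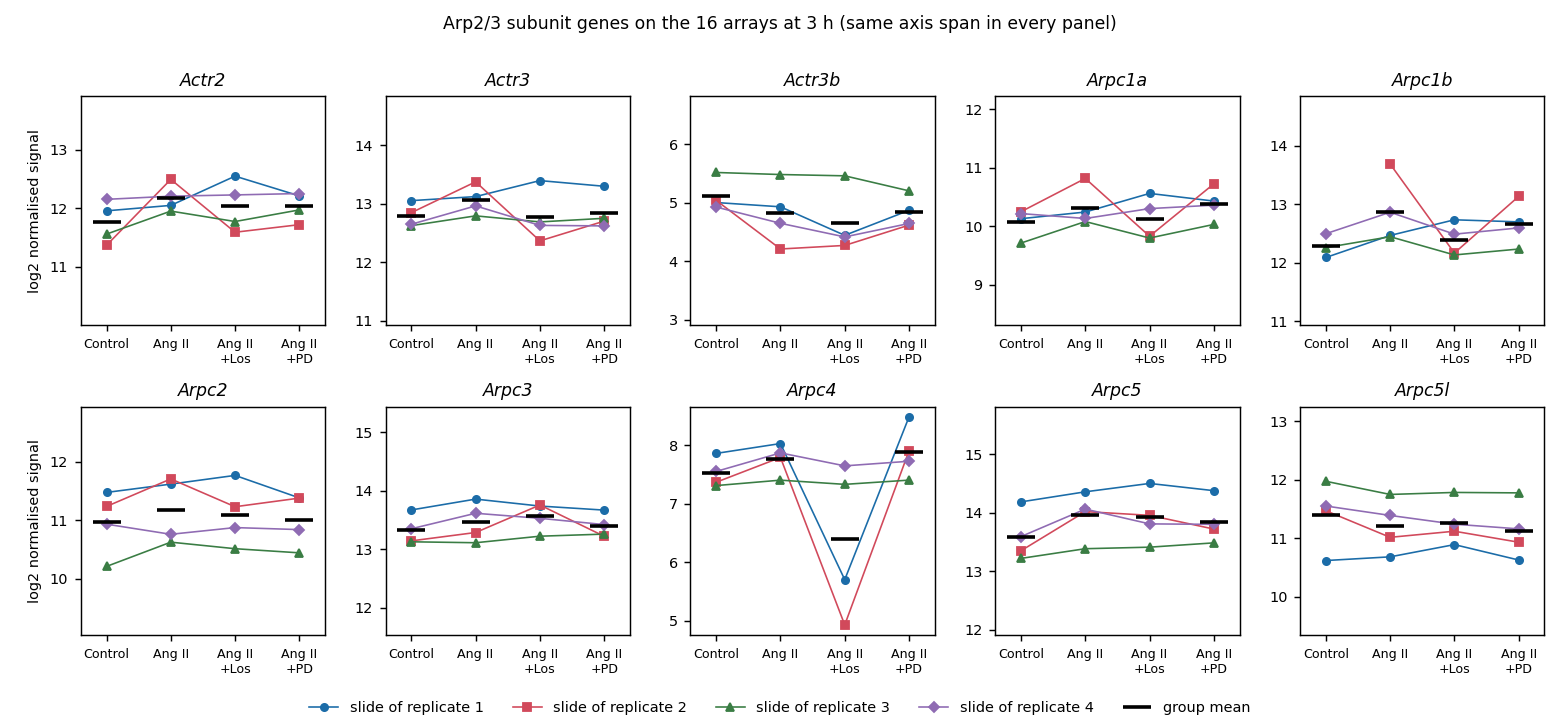
Log2 normalised signal of the 10 Arp2/3 genes in the 4 groups at 3 h, 1 line and symbol per slide, with black bars for the group means and the same axis span in each panel. The Arpc4 panel drops in Ang II+Los on the slides of replicates 1 and 2, to 5.70 and 4.93, and Arpc5 rises from Control to Ang II on each slide.

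At 6 h a different pair was called, Arpc1a higher and Arpc5l lower with Ang II. Here 22.2% of the 16441 genes tested were called, so 2 of 10 again lay near the background.

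Arpc1a encodes the other ArpC1 subunit, the propeller that touches the activating proteins. It read 10.65, 10.65, 10.91 and 10.74 in Control and 10.93, 10.90, 11.00 and 10.94 with Ang II. Of the Control values 3 of 4 lay below every Ang II value, and that of replicate 3 stood just above the lowest one, so the groups overlapped slightly. Ang II was higher on each slide, by 0.28, 0.25, 0.08 and 0.19, and limma gave 0.20 ± 0.05 (SE), 1.15-fold, with an unadjusted p of 0.00197 and an adjusted p of 0.0809.

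Both Arpc1a probes moved the same way. A_44_P486568, the first Arpc1a sequence above, gave 0.15 and A_64_P068589 gave 0.25, each called when fitted alone. The call of Arpc1a held in 16 of 16 alternatives, with estimates from 0.15 to 0.26. In the antagonist groups Arpc1a read 10.99, 11.01, 11.03 and 11.01 in Ang II+Los and 10.95, 10.85, 11.03 and 10.92 in Ang II+PD123319, with means above that of Control. The estimates against Ang II were 0.07 (interval -0.05 to 0.18) and 0.00 (interval -0.12 to 0.11).

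Arpc5l encodes the relative of Arpc5. Its average was 10.71, 11.57, 10.16 and 11.54 in Control and 10.61, 10.90, 10.15 and 10.97 with Ang II at 6 h. Ang II was lower by 0.10, 0.67, 0.00 and 0.57 within slides, so the slides of replicates 2 and 4 carried it. The estimate was -0.34 ± 0.11 (SE), 0.792-fold, with an unadjusted p of 0.0105 and an adjusted p of 0.125 in limma. It was -0.23 without replicate 2 and -0.26 without replicate 4, not called in either.

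The overlapping Arpc5l probes gave -0.35 (A_64_P064523) and -0.40 (A_64_P139113) at 6 h, both called alone, and the dim probe A_64_P064521 gave -0.25, not called. At 3 h the order was turned. The dim probe gave -0.54, called alone with an unadjusted p of 0.00284 in limma and lower with Ang II on each of the 4 slides, while the bright pair gave 0.00 and -0.04. The gene average of -0.19 at 3 h therefore rested on the dim probe.

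At 6 h Arpc5l had the widest range of the family over the 16 arrays, 1.41. The genes most like it, among 14733 above background on each array, were the unnamed transcript TC582937 (r = 0.98), the unnamed probe A_64_P066586 (0.97), Amdhd2 (0.96), the unnamed TC583931 (0.96) and Scg2 (0.96), with Spearman's rho from 0.90 to 0.94. These arrays share slides too, and the slide of replicate 3 gave the lowest Arpc5l value in each group.

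**Figure D2:**
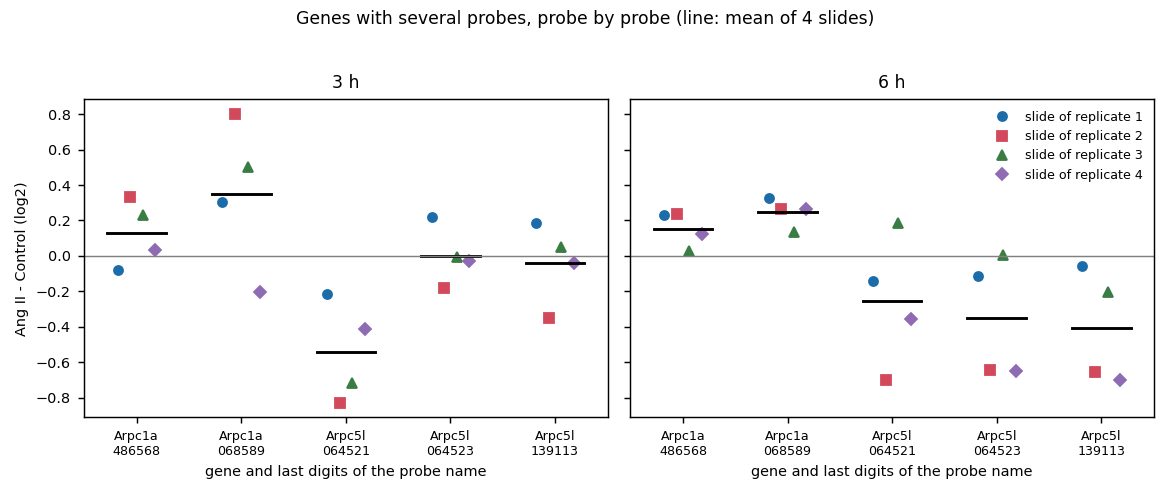
Ang II minus Control in log2 units for each probe of Arpc1a and Arpc5l at 3 h (left) and 6 h (right), 1 symbol per slide and a line at the mean. At 6 h both Arpc1a probes lie above 0 on each slide, and the Arpc5l probe A_64_P064521 departs from the other 2 at 3 h, with a mean of -0.54.

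The other 8 subunits were not called at 6 h. Arpc4 gave 0.20 (interval -0.03 to 0.42), Actr3 -0.13 (-0.33 to 0.07), Actr3b 0.06 (-0.28 to 0.40), Arpc2 0.06 (-0.08 to 0.21), Actr2 0.06 (-0.22 to 0.33) and Arpc1b 0.05 (-0.09 to 0.19). Arpc5 read 0.01 (-0.15 to 0.17) and Arpc3 0.00 (-0.11 to 0.11). Of these 8 intervals only those of Arpc4 and Actr3b reach a rise of the size Arpc5 had at 3 h (0.37). The median over the 10 was 0.05, beside -0.01 for all genes.

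The change of the Ang II difference from 3 h to 6 h was tested as its own contrast over all 32 arrays, in which 7.33% of 13615 genes were called. Among the members it was called for Arpc5, from 0.37 to 0.01 (change -0.36 ± 0.12 SE, unadjusted p = 0.00799, adjusted p = 0.655 in limma), and for Actr3, from 0.27 to -0.13 (change -0.40 ± 0.19 SE, unadjusted p = 0.0421, adjusted p = 0.659). The change of Actr3 was -0.22 and not called without replicate 2, and its call was lost in 7 of 12 alternatives, those without the replicate block, with quantile normalization and with normexp background correction among them. That of Arpc5 was lost without the replicate block and with 75th percentile scaling. The other 8 were not called, so the calls for Actr2 at 3 h and for Arpc1a and Arpc5l at 6 h are not shown to belong to 1 time. For Arpc1a the change was -0.04 (interval -0.42 to 0.34). The arrays at 3 h and 6 h lie on different slides and scans, and the scanner software treated dim spots differently. Time cannot be told apart from these. The contrast also shares its estimate of the spread between the times. The median SE over all genes for Ang II x Control was 0.162 at 3 h and 0.105 at 6 h.

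**Figure D3:**
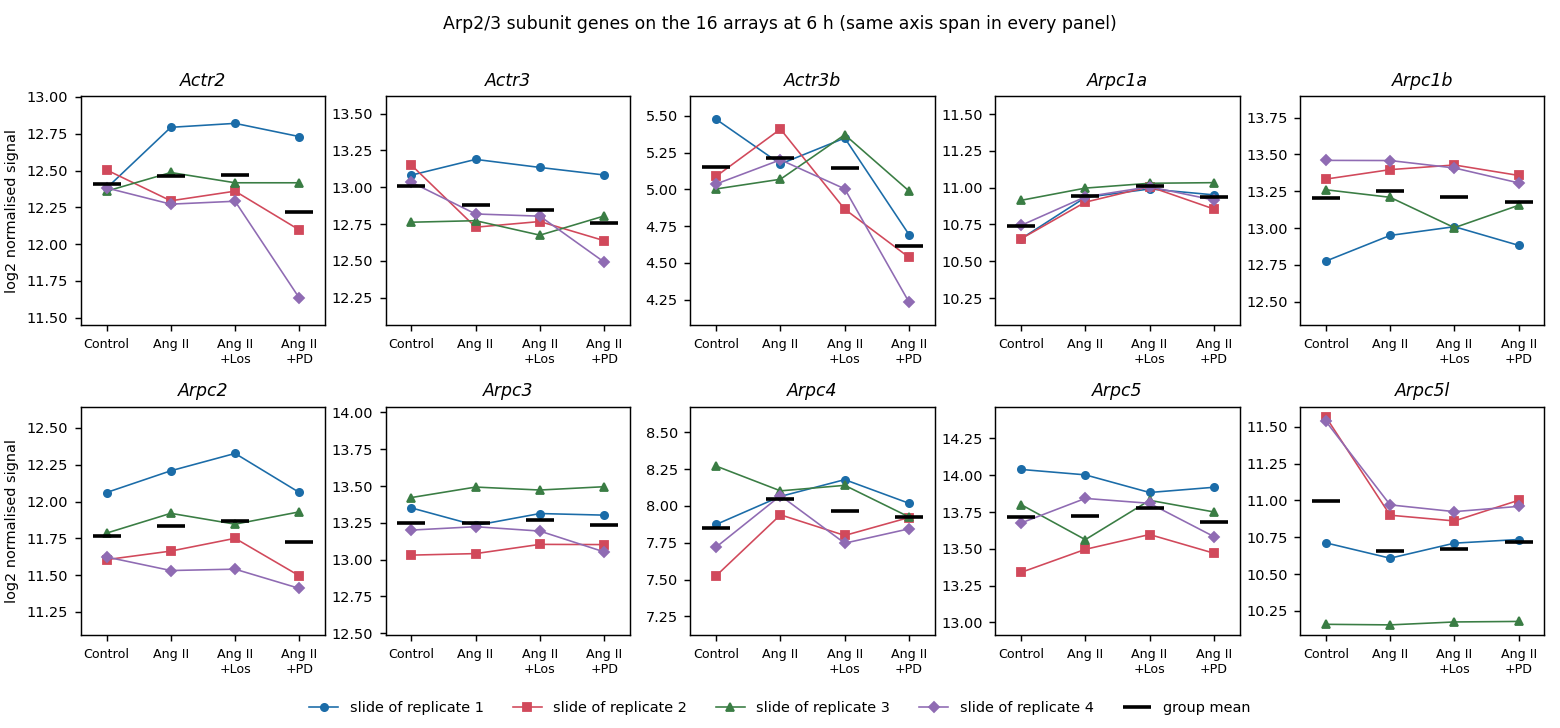
Log2 normalised signal of the 10 Arp2/3 genes in the 4 groups at 6 h, drawn as for 3 h with 1 line per slide and black bars for group means. The Ang II, Ang II+Los and Ang II+PD123319 means of Arpc1a (10.94, 11.01 and 10.94) lie above Control (10.74), and Actr3b is low in Ang II+PD123319 (mean 4.61).

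Pretreatment with Losartan was compared with Ang II alone on the same Ang II arrays, so an Ang II array that is high raises 1 difference and lowers the other. At 3 h Arpc4 and Arpc1b stood under the threshold, both lower in Ang II+Los, 2 of 10 beside 11.1% of all genes. The family was chosen with this comparison known, so nothing is read from that count.

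Arpc4, a subunit of the filament-side core, read 7.86, 7.37, 7.31 and 7.55 in Control and 8.03, 7.79, 7.40 and 7.87 with Ang II. In Ang II+Los it read 5.70, 4.93, 7.33 and 7.65, and in Ang II+PD123319 8.48, 7.90, 7.40 and 7.73. The values of replicates 1 and 2 in Ang II+Los stood far below every other array of that time, and those of replicates 3 and 4 lay among the other groups. In the scanner's own signal the Losartan arrays gave 101, 29.5, 93.3 and 182 against 367, 487, 143 and 220 with Ang II, all well above background.

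The difference from Ang II was -2.33, -2.86, -0.07 and -0.22, a mean of -1.37 that no slide showed. Slides of replicates 1 and 2 were scanned together and those of replicates 3 and 4 in another scan. The mean was -2.59 in the first scan and -0.15 in the second. Scan and slide move together with the result here, and their part in it was not tested. At 6 h Arpc4 read 8.18, 7.80, 8.14 and 7.75 in Ang II+Los against 8.06, 7.94, 8.10 and 8.07 with Ang II, an estimate of -0.08 (interval -0.30 to 0.14).

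The genes whose pattern over the 16 arrays at 3 h was most like that of Arpc4, by Pearson's r among 11562 genes above background on each array, were Rsu1 (r = 0.96), the unnamed transcript XR_008539 (0.96), the unnamed probes A_64_P149312 and A_64_P106664 (0.95 each) and Poldip3 (0.95). Spearman's rho ran from 0.65 to 0.86. The arrays share slides and treatments, and 2 of the 16 stood far below the rest. The Losartan difference of Rsu1, a Ras suppressor, was -1.34 and -1.36 in the first scan and 0.08 and -0.15 in the second. That of XR_008539 was -2.81 and -3.40, then -0.26 and 0.26. These genes were picked for their likeness to Arpc4, so the choice itself fixed that they share its split between scans.

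Arpc1b read 12.47, 13.69, 12.45 and 12.86 with Ang II and 12.74, 12.17, 12.13 and 12.49 in Ang II+Los at 3 h. The Ang II array of replicate 2 was the highest of all and the groups overlapped. The within-slide differences were 0.27, -1.52, -0.31 and -0.37 and the estimate was -0.49 ± 0.22 (SE), 0.714-fold. Without replicate 2 it was -0.14.

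Actr3 gave -0.29 (interval -0.62 to 0.04), Arpc1a -0.20 (-0.56 to 0.17), Actr3b -0.17 (-0.52 to 0.18) and Actr2 -0.14 (-0.52 to 0.24), intervals that all include 0. Arpc2 (-0.08), Arpc5 (-0.04), Arpc5l (0.05) and Arpc3 (0.09) were nearer to 0. The values again differed by slide. On the slide of replicate 1, 7 of 10 members were higher with Losartan (median 0.18), and on that of replicate 2, 7 of 10 were lower (median -0.69). The all-gene medians on those slides were 0.02 and -0.01. The array brightness difference was 0.58 and -0.99 on those slides and -0.49 and -0.12 on the slides of replicates 3 and 4, where the members' medians were -0.09 and -0.19. Its part in these differences was not tested.

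**Figure D4:**
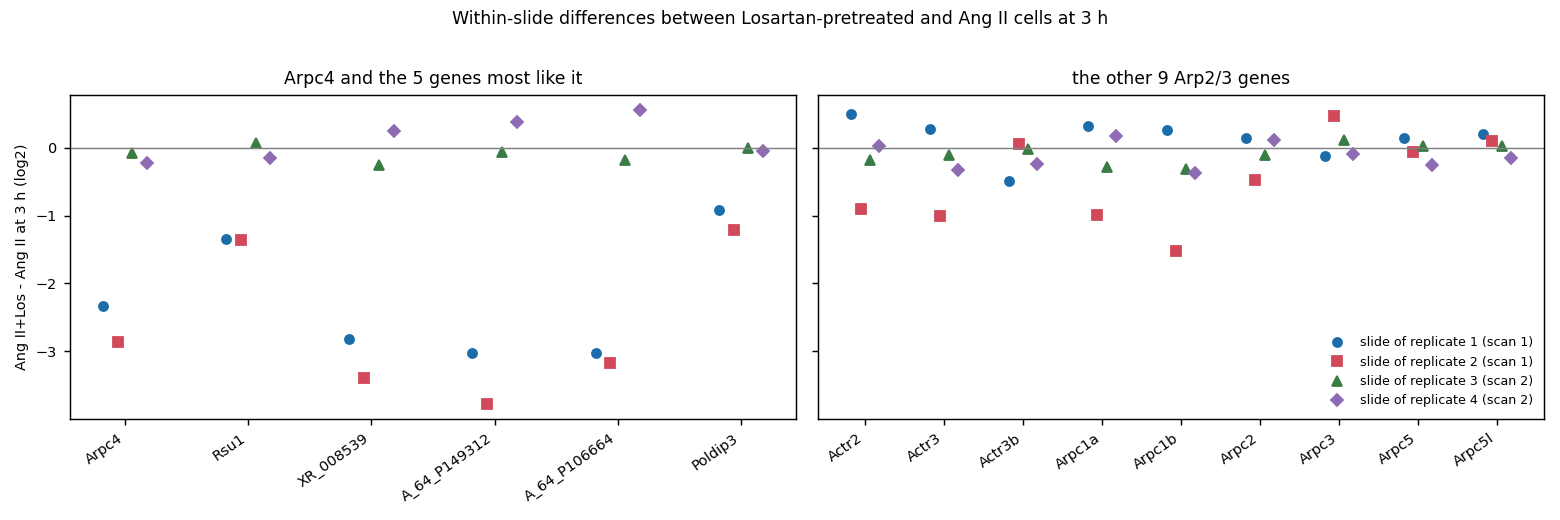
Ang II+Los minus Ang II at 3 h in log2 units, 1 symbol per slide, for Arpc4 and the 5 genes most like it (left) and for the other 9 Arp2/3 genes (right). In Arpc4 the slides of the first scan lie at -2.33 and -2.86 and those of the second at -0.07 and -0.22, and Actr2, Actr3, Arpc1a, Arpc1b and Arpc2 are lowest on the slide of replicate 2.

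At 6 h limma called 0 of the 10 members with Losartan at an unadjusted p under 0.05, beside 1.72% of all genes. The paired and unpaired t-tests of the methods each called 1, Arpc1a, beside 4.57% and 0.456% of all genes. Estimates ran from -0.08 to 0.07. The change of the Losartan difference from 3 h to 6 h (5.11% of genes called) took Arpc4 from -1.37 to -0.08, a value that rests on the arrays described above and is left without a test. The other 9 members were not called.

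With PD123319 at 3 h, 0 of the 10 members were called by limma at an unadjusted p under 0.05, beside 2.66% of genes. The paired and unpaired t-tests of the methods called 0 as well, beside 4.04% and 0.668% of all genes. Estimates ran from -0.22 (Actr3, interval -0.55 to 0.11) to 0.11 (Arpc4, interval -0.87 to 1.08). The Losartan arrays of Arpc4, described above, enter the same fit and its estimate of the spread.

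At 6 h 1 of 10 stood under the threshold, Actr3b, beside 5.98% of genes, a count that the choice of the family already used. Actr3b is the second Arp3 gene. It read 5.17, 5.41, 5.07 and 5.20 with Ang II and 4.69, 4.54, 4.99 and 4.23 in Ang II+PD123319. The family was chosen with this difference known, so nothing is read from the gap between the groups. The differences within slides were -0.48, -0.87, -0.08 and -0.97, a mean of -0.60 that was -0.29 with normexp background correction. Control read 5.48, 5.09, 5.00 and 5.04, and Ang II+Los 5.35, 4.87, 5.37 and 5.00.

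The probe was dim. Its scanner signal was 48.5, 37.2, 23.0 and 56.7 with Ang II and 35.1, 22.9, 24.7 and 21.7 in Ang II+PD123319, so on the slide of replicate 3 the order before normalization was turned. All 16 arrays were well above background at 6 h. Actr3, its bright relative, gave -0.12 (interval -0.32 to 0.08) in the same comparison.

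Beyond Actr3b, 8 of the other 9 members had negative estimates at 6 h, where 48.5% of all genes were above 0. Members share arrays and are not independent. The median over all 10, Actr3b included, was -0.09 beside 0.00 for all genes. Of the other 9 Actr2 was lowest at -0.24 (interval -0.52 to 0.04), with -0.06, -0.20, -0.07 and -0.64 within slides. On the slide of replicate 4 all 10 members were lower (median -0.20, beside -0.01 for all genes). The Ang II+PD123319 array of that slide was dimmer than the Ang II array by 0.65 at the 75th percentile, whose part in the result was not tested. Arpc5l was the only member above 0 (0.06). The change of the PD123319 difference from 3 h to 6 h (1.65% of genes called) took Actr3b from 0.02 to -0.60, given without a test, and the other 9 members were not called.

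The antagonists were set against each other directly at equal dose and time. At 3 h only Arpc4 stood under the threshold of the 10 (15.1% of genes), with differences of -2.78 and -2.97 on the slides of the first scan and -0.07 and -0.08 on those of the second. At 6 h only Actr3b did (7.82% of genes), higher with Losartan by 0.66, 0.33, 0.38 and 0.77 within slides, a mean of 0.53 that was 0.21 with normexp background correction. Both are the genes that helped to choose the family. For the other members the interval of the difference at 6 h was narrowest for Arpc3 (0.03, from -0.08 to 0.14) and widest for Actr2 (0.25, from -0.03 to 0.53), and a p above the threshold does not show that the antagonists acted alike.

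**Figure D5:**
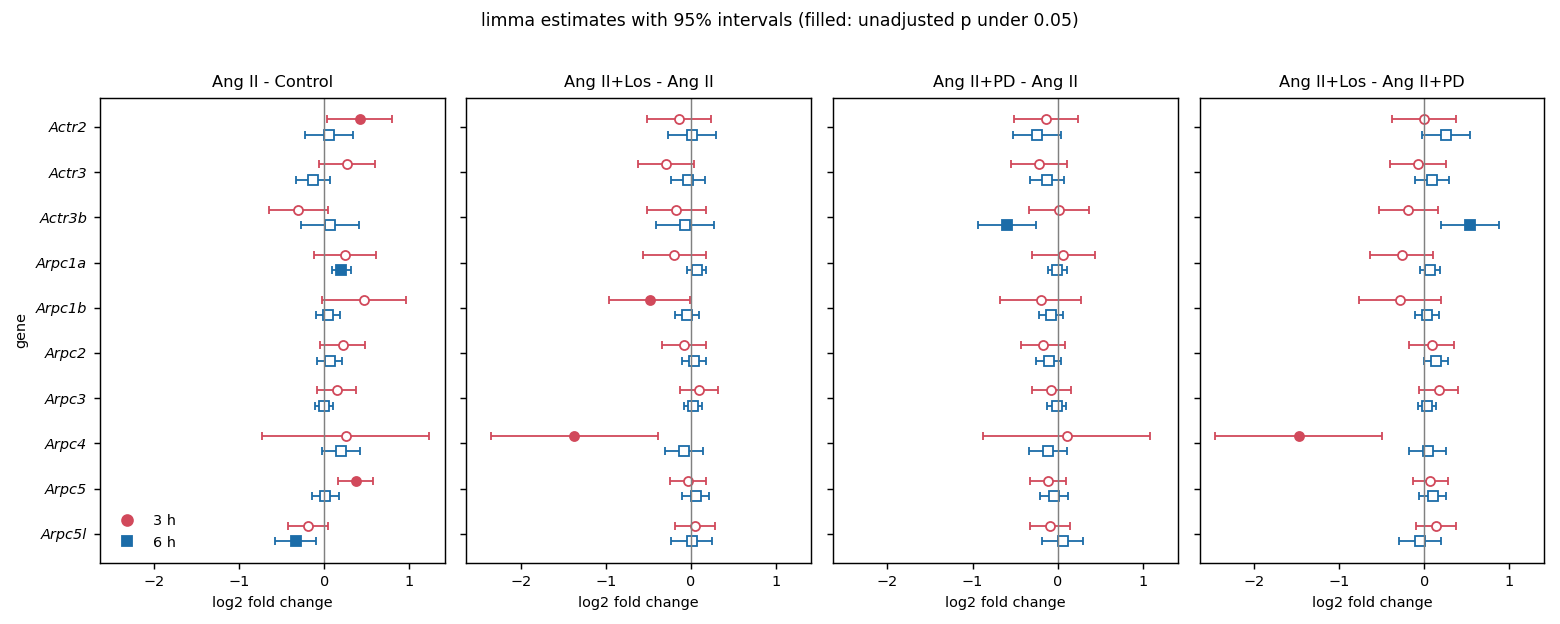
Log2 fold changes from limma with 95% confidence intervals for the 10 genes in the 4 comparisons, circles for 3 h and squares for 6 h, filled where the unadjusted p was under 0.05. The filled points of Arpc4 and Actr3b are those that chose the family, and the longest intervals are those of Arpc4 at 3 h.

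The genes that work on the same actin network were read from 10 lists (activators, partners, inhibitors, capping and turnover factors, other nucleators, the cytoplasmic actins and actin-related proteins outside the complex), 73 of them tested at 3 h and 80 at 6 h. With Ang II at 3 h, 8 were higher and 0 lower (median 0.12), and at 6 h 21 were higher and 4 lower (median 0.08), beside the all-gene medians of 0.00 and -0.01 and the 12.6% and 22.2% of all genes called. Without replicate 2 these counts of 8 and 25 fell to 4 and 13, and the share of all genes called fell to 6.36% and 12.9%. Without replicate 4 they were 2 and 12, beside 5.36% and 12.2%, and without the replicate block 1 and 6, beside 2.33% and 3.92%. That at 6 h was 16 without replicate 1, beside 20.4%. That at 3 h was 3 with 75th percentile scaling and 4 with normexp, while the share of all genes stayed at 12.2% and 12.8%. It was 5 with the stricter filter (12.6%) or the deposited values (12.4%), and 0 in the unpaired t-test (2.14%). That at 6 h was 12 in the paired t-test (11.6%), 5 in the unpaired one (3.1%) and 14 from the compared arrays alone (16.3%). With Losartan against Ang II at 3 h 3 were higher and 15 lower (median -0.14) beside 11.1% of all genes. At 6 h limma called 0 at an unadjusted p under 0.05, beside 1.72%, where the methods' paired t-test called 3, beside 4.57%. The count of 18 at 3 h moved with the share of all genes, given in brackets. It fell to 0 in the paired t-test (2.85%), 1 in the unpaired one (1.01%) and 3 without the replicate block (2.44%). It was 5 from the compared arrays alone (2.97%), 8 without replicate 1 (10.1%) and 3 without replicate 2 (1.75%). The second scan alone gave 0 (3.93%) and the first 20 (18.3%). PD123319 against Ang II gave 1 higher and 0 lower at 3 h and 0 higher and 3 lower at 6 h, beside 2.66% and 5.98% of all genes. The count at 3 h ranged from 0 to 4 over the alternatives. It was 0 without the replicate block (0.33%), without replicate 3 (2.83%) and without replicate 4 (0.22%). That at 6 h ranged from 0 to 8. It was 0 without the replicate block (0.584%) and without replicate 4 (2.29%), 1 without replicate 2 (3.67%) and 6 without replicate 1 (9.7%).

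Among proteins that cap filaments, sever them or bind monomers, 6 of 16 were higher with Ang II at 6 h and 0 lower, where 22.2% of all genes were called. Cap1, a cyclase-associated protein that recycles actin monomers, was higher by 0.56, 0.48, 0.24 and 0.56 on the slides (estimate 0.46 ± 0.08 SE, adjusted p = 0.0432 in limma). Capzb, the beta subunit of the capping protein that closes filament ends, was higher by 0.57, 0.39, 0.29 and 0.45 (0.42 ± 0.08 SE, adjusted p = 0.0466). These were among the 56 genes of the array with an adjusted p under 0.05 in that comparison, a number that rested on the settings. It was 115 with the stricter filter, 107 with the deposited values and 682 without replicate 3, and 0 without the replicate block, without replicate 1, 2 or 4, with 75th percentile scaling, quantile normalization, normexp or no filter, from the compared arrays alone and in both t-tests. Twf1, twinfilin, was called at 0.17 with an adjusted p of 0.222. At 3 h 2 of the 16 were called with Ang II, near the 12.6% of all genes. These were Tmsb4x (thymosin beta 4, 0.28) and Capza1 (0.79, with 2.59 on the slide of replicate 4 and 0.06 to 0.44 on the others).

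Nucleators and elongators outside the complex gave 4 higher and 1 lower of 11 with Ang II at 6 h, beside the same 22.2%. The lists that follow are to be read against 22.2% at 6 h and 12.6% at 3 h. Vasp, which extends filaments at their tips, was higher by 0.45 (adjusted p = 0.0588), and the formins Fmnl1 by 0.45 and Fmn1 by 0.39. Of the proteins that inhibit the complex or take branches apart, 4 of 12 were higher and 1 lower: the tropomyosins Tpm1 (0.26) and Tpm4 (0.27) were higher and Gmfg, a debranching factor, was lower at -0.40. In the WAVE complex, the activator below Rac, Cyfip1 (0.27) and Abi1 (0.16) were higher of 6 tested. Among the WASP partners Wipf1 was higher at 3 h (0.23) and at 6 h (0.24) and Nckipsd lower at 6 h (-0.22). Upstream, the Rac exchange factor Dock1 was higher at 6 h (0.26) and its partner Elmo2 at 3 h (0.42).

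Of the 5 nucleation promoting factors, 3 WASH complex members and 2 cytoplasmic actins tested, limma called 0 with Ang II at either time at an unadjusted p under 0.05. Outside the complex, the actin-related proteins Actr1a of dynactin (0.21) and Actr8 of a chromatin remodeller (-0.14) were called at 6 h. The tropomyosin Tpm1 (0.35) and the coronin Coro1c (0.25) were higher with Ang II at 3 h.

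Of the list genes with 1 direction on all 4 slides, Losartan against Ang II at 3 h gave its largest differences in Arf6 (-1.25), Cap1 (-1.09), Actb, the cytoplasmic beta actin (-0.55), Rac1 (-0.55), Dock1 (-0.53) and Cyfip1 (-0.36). Tpm1 (-0.31) and Capg (-0.19) were called too. In each of these the slide of replicate 2 held the largest within-slide difference, -3.52 in Arf6 and -1.59 in Actb, against -0.16 to -1.06 and -0.08 to -0.30 on the other slides. Against PD123319 at 3 h, Pfn1 (profilin, -0.90), Rac1 (-0.64), Rhog (-0.43), Wdr1 (-0.35) and Coro7 (-0.34) were lower with Losartan. Whamm (0.60, read under its older name Whdc1), Fmnl1 (0.48), Gmfb (0.40), Abi2 (0.36), Spire1 (0.36), Actl6a (0.32) and Nckipsd (0.25) were higher. Cap1 (-0.95) and Tpm1 (-0.29) were called there as well. The count of 22 called there stood beside 15.1% of all genes, and the share under each setting is given in brackets. It fell to 1 in the unpaired (1.42%) and 4 in the paired t-test (4.12%), and to 6 without the replicate block (3.42%). It was 7 from the compared arrays alone (5.92%), 4 without replicate 1 (3.05%), 2 without replicate 2 (2.87%) and 0 in the second scan alone (1.38%). PD123319 against Ang II named Tmsb10 at 3 h (0.17) and Wdr1 (-0.14) and Diaph3 (-0.27) at 6 h.

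As a check of the label, 7 of 9 glial and glioma line markers were tested at both times (Vim, Nes, S100b, Cspg4, Olig1, Sox9 and Cd44), while Gfap and Slc1a3 were above background on 0 of 16 arrays at 3 h and on 2 and 0 at 6 h. Of other cell types, Snap25 of neurons (1 of 5 markers) and Cdh5 of endothelium (1 of 4) were tested. Of the macrophage markers, Aif1, Itgam and Cd68 were tested at 3 h (3 of 5), and Csf1r as well at 6 h (4 of 5). Snap25, Aif1, Itgam and Cd68 were above background on 16 of 16 arrays at both times. Csf1r was so on 13 at 3 h and 16 at 6 h, and Cdh5 on 12 and 16. Ptprc, Pecam1, Tek and Syt1 were above background on 0 arrays. Other markers that were not tested still stood above background on some of the 16 arrays of a time, Kdr of endothelium on 6 at 3 h and 11 at 6 h, and Stmn2, Syp and Rbfox3 of neurons on 0, 1 and 0 at 3 h and 6, 5 and 3 at 6 h. No marker was called at 3 h. The share of all genes called there was 12.6% with Ang II, 11.1% with Losartan, 2.66% with PD123319 and 15.1% between the antagonists. At 6 h Olig1 was called with Ang II (-0.24), beside 22.2% of all genes. With PD123319 against Ang II at 6 h, the comparison of Actr3b, 5.98% of all genes were called. There 3 of 7 glial markers were called, S100b at 0.28, Olig1 at -0.24 and Sox9 at -0.49, and 1 of 4 macrophage markers, Aif1 at 0.39. Summed on the linear scale of the normalised signal, the glial markers ran from 7736 to 10319 with Ang II and from 6959 to 11952 in Ang II+PD123319, and the macrophage markers from 260 to 316 and from 247 to 353. The part of these cells in the result was not tested. S100b was also called with Losartan against PD123319 at 6 h (-0.32), beside 7.82% of all genes. Across the 32 arrays 55.9% to 79.8% of spots stood well above background and 0.695% to 2.07% were marked as uneven. The number of arrays, 4 a group, limits the precision. The sources name replicates but not separate cultures, so p-values measure the spread between these arrays.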

How the data were processed

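RNA of C6 cells was labelled with Cy3 and hybridized to 32 one-colour Agilent rat arrays. Per the file headers, the authors' intensity values came from Agilent Feature Extraction 9.5.3.1, background-subtracted and detrended, with flags per spot and no scaling between arrays. The deposited log2 table equals log2 of those signals (100% of 561803 values within 1e-06) with 38.2% blanks, and served as an alternative.

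Spots marked uneven were left out (of 42877), dim spots at 3 h took the signal's error, and probes with over 2 gaps of 16 were dropped. Log2 intensity was normalized by cyclic loess within a time (span 0.7, 3 iterations), a probe was kept where some group had it above background on each of its 4 arrays, and probes were averaged per gene name. limma 3.58.1 (R 4.3.3; lmFit, eBayes with trend, two-sided) fitted 16 arrays per time with the slide (replicate number) as a block. Same-numbered arrays deviated together in all 24 pairs per time (r from 0.15 to 0.92 at 3 h and 0.55 to 0.83 at 6 h), and the series record calls the tests paired. Benjamini-Hochberg adjustment covered all genes. The scripts were tested on simulated data.

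The members and gene lists were chosen with earlier results of these data known. From each list at most 3 genes per comparison were named, those with the largest difference among genes called with 1 direction on all 4 slides. Of 107 symbols, 86 stood on the array as written, 8 under another name and 13 were not found there. All 10 members' symbols stand in the RefSeq table of assembly GRCr8, used for names. Probe sequences and positions (rn4) are those of the files. Alternatives were other scalings, background correction, filters, input, tests, sets of arrays and each replicate left out. Each scan alone was added after the data were seen.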

Additional observations from a re-analysis of the deposited data

Results flagged for a closer look

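Among 79 sets of 4 arrays (a member in a group), 2 had an array standing apart from the other 3, and chance alone flags about 1 in 20. In Actr3b in Ang II+Los at 3 h the value of replicate 3 (5.46) lay above 4.44, 4.27 and 4.41, a gap of 0.855 of the range, and in Actr2 in Control at 6 h the value of replicate 2 (12.50) lay above 12.38, 12.36 and 12.38, a gap of 0.846 of a range that was itself small.

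In 2 of 10 members the Ang II difference itself changed between 3 h and 6 h at an unadjusted p under 0.05 in limma, beside 7.33% of all genes, by -0.40 in Actr3 and by -0.36 in Arpc5. Neither change passed adjustment, and that of Actr3 was not called without replicate 2. Time, slide and scan cannot be told apart in these changes. Described without a test, since they helped to choose the family, the Losartan difference moved by 1.29 in Arpc4 and the PD123319 difference by -0.62 in Actr3b.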

How the results depend on the processing

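No alternative turned the direction of a called member, but several could not. Dropping the block, both t-tests, the filters and the compared arrays alone gave Actr2 and Arpc1a the same estimates as the main fit. The directions of Arpc4 and Actr3b were already used in choosing the family. Arpc1a (Ang II x Control, 6 h) stayed under the threshold in 16 of 16 alternatives, while Arpc1b (Losartan, 3 h) did so in 3 of 14, Actr2 in 7 of 16, Arpc5l in 11 of 17 and Arpc5 in 11 of 15. Below, the Losartan and PD123319 comparisons are those with Ang II alone and the direct comparison sets the antagonists against each other. Causes of the moves in the number of members called were not tested. Arpc4 in the Losartan and direct comparisons at 3 h and Actr3b in the PD123319 and direct comparisons at 6 h helped to choose the family. Nothing is read from whether those calls, or the changes with time of those differences, held. A like number can hold different genes: for Ang II at 3 h the methods' paired t-test called Arpc1b and Arpc4, where limma called Arpc5 and Actr2. Without the replicate block that pairs arrays by slide, the number was 0 and 1 for the Ang II comparison at 3 h and 6 h and 1 for Losartan at 3 h. The shares of all genes were 2.33%, 3.92% and 2.44%. It was 0 for the change with time of the Ang II and of the PD123319 comparison. At 3 h the methods' paired t-test gave 0 for Losartan and 0 for the direct comparison, beside 2.85% and 4.12% of all genes. At 6 h it gave 1 for Ang II, 1 for Losartan and 0 for PD123319, beside 11.6%, 4.57% and 8.7%. Read as unpaired it gave 0 for Ang II, Losartan and the direct comparison at 3 h, beside 2.14%, 1.01% and 1.42%. At 6 h it then gave 1 for Ang II and 1 for Losartan, beside 3.1% and 0.456%. For Losartan at 3 h, 75th percentile scaling, normexp, the stricter filter, no filter and the compared arrays alone gave 1 each, always Arpc4. The shares of all genes were 11%, 12.1%, 11.3%, 6.9% and 2.97%. For the direct comparison at 6 h, 75th percentile scaling gave 3, and normexp, no filter and the compared arrays alone 2 each, always with Actr3b. The shares there were 8.83%, 5.92%, 7.2% and 11%. The compared arrays alone gave 2 for PD123319 at 6 h (Actr2 and Actr3b, beside 11.2%) and 0 for the change of the Losartan comparison. Quantile normalization and normexp gave 1 each for the change of the Ang II comparison, and the stricter filter 0 for that of PD123319. Deposited values without gaps, with 5 members at 3 h, gave 1 for Ang II, 0 for Losartan and 0 for the direct comparison at 3 h. The shares of all genes were 12.4%, 11.5% and 15.8%. For the changes of the Ang II and Losartan comparisons the deposited values gave 0. Leaving out 1 replicate gave 1 to 3 for Ang II at 3 h (5.36% to 13.3% of all genes) and 1 to 3 at 6 h (12.2% to 23.6%). At 3 h it gave 0 to 2 for Losartan (1.75% to 13.8%). There it gave 0 to 1 for PD123319 (0.22% to 5.15%) and the direct comparison (2.87% to 19.7%). At 6 h it gave 1 to 2 for PD123319 (2.29% to 9.7%) and the direct comparison (4.03% to 10.2%). For the changes of the Ang II, Losartan and PD123319 comparisons it gave 1 to 3, 0 to 2 and 0 to 1. The share of all genes under the alternatives was not counted for the changes with time. Added after the data were seen, the first scan alone gave 1 for Ang II and 1 for Losartan, beside 4.64% and 18.3% of all genes. The second scan alone gave 1 (Arpc1b) for Losartan, 1 (Arpc1b) for PD123319 and 0 for the direct comparison, beside 3.93%, 4.12% and 1.38%. Over all genes, the counts for the Ang II, Losartan, PD123319 and direct comparisons were 1712, 1508, 363 and 2064 at 3 h, and 318, 333, 45 and 466 without the replicate block. At 6 h they were 3648, 283, 983 and 1286, and 645, 29, 96 and 132 without it. Low signal limits Actr3b, well above background on 15 of 16 arrays at 3 h, and 1 Arpc5l probe.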
